A study of Mus musculus with 6 samples.

Results

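The tumour necrosis factor (TNF) superfamily was examined in mouse embryonic fibroblasts (MEF), primary cells from E14.5 embryos grown in culture. The genes were chosen by symbol: every row of the expression table named Tnfsf or Tnfrsf with a number, together with Tnf, Lta, Ltb, Ltbr, Fas, Fasl, Cd40, Cd40lg, Cd27, Cd70, Ngfr, Edar and Eda2r. This gave 43 genes of the 23748 rows measured, 16 ligands and 27 receptors. Tnfsf12 was not matched to a row and was not analysed here.

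RNA came from 3 FOG-2 Rb- samples, titled Ki-27, and 3 wild type samples, titled Wt-18. FOG-2 Rb- cells carry a knock-in form of FOG-2 (gene Zfpm2), a co-factor of GATA transcription factors, that by the title of the series does not bind the retinoblastoma protein pRb. All 6 samples were proliferating cultures in medium with donor bovine serum, taken before any differentiation and given no other agent. Neither the zygosity of the knock-in nor the origin of replicates from distinct embryos or cultures is stated. The p-values therefore reflect only how far the arrays of a genotype differ, and part of that may be technical. The meaning of 18 and 27 is not stated either, so genotype and what these numbers mark cannot be told apart.

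TNF ligands are mostly trimeric membrane proteins, some of which are cut from the cell surface by proteases, and they act by clustering their receptors on the same or another cell. Receptors with a cytoplasmic death domain recruit adaptors such as TRADD and FADD and can trigger apoptosis or necroptosis. The other signalling receptors bind TRAF adaptors and feed into NF-kB and MAP kinase pathways, while decoy receptors bind ligand without a full signal. Fibroblasts are known as responders to TNF and as a stromal source of some ligands, among them RANKL.

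Facts of the whole series were as follows. Zfpm2 measured 9.40, 9.39 and 9.40 on the log2 scale in FOG-2 Rb- replicates 1 to 3, against 9.76, 9.65 and 9.64 in wild type replicates 1 to 3, a level that cannot check the labels, since the knock-in changes binding and not necessarily RNA. The deposited log2 values had array medians between 5.65 and 5.73, and pairs of arrays correlated across rows at 0.997 to 0.998 where the genotype was shared and at 0.990 to 0.991 where it was not. No detection calls were used, so background could not be set for single rows. A gene was counted as changed at an adjusted p under 0.05, from limma's moderated test over all 23748 rows with Benjamini-Hochberg adjustment. By this test Zfpm2 was 1.22-fold lower in FOG-2 Rb- cells (log2 fold change -0.29, limma adjusted p = 0.00913), and its arrays did not overlap.

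Among TNF ligands and receptors, 6 genes were higher and 2 lower in FOG-2 Rb- cells, and 35 did not pass. The 8 changed genes were 18.6% of the 43, where 18.03% of all rows were called (9.44% higher and 8.59% lower), so the share in the family was near that background. Its median log2 fold change was 0.01, against -0.02 over all rows. The arrays of the genotypes did not overlap for 15 of the 43, or 34.9%, where the share over all rows was 35.63%. Of the 15, 9 were higher and 6 lower, against 17.58% and 18.05% of all rows. Unadjusted p was under 0.05 for 14 of the 43, where 29.93% of all rows had such a p. By mean level, 17 of the 43 lay above the median of all rows, and 5 of them passed, where 31.42% of the rows above it did. The other 26 lay below the median, and 3 of them passed, where 4.63% of the rows below it did. The results below are therefore results on single genes.

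**Figure D1:**
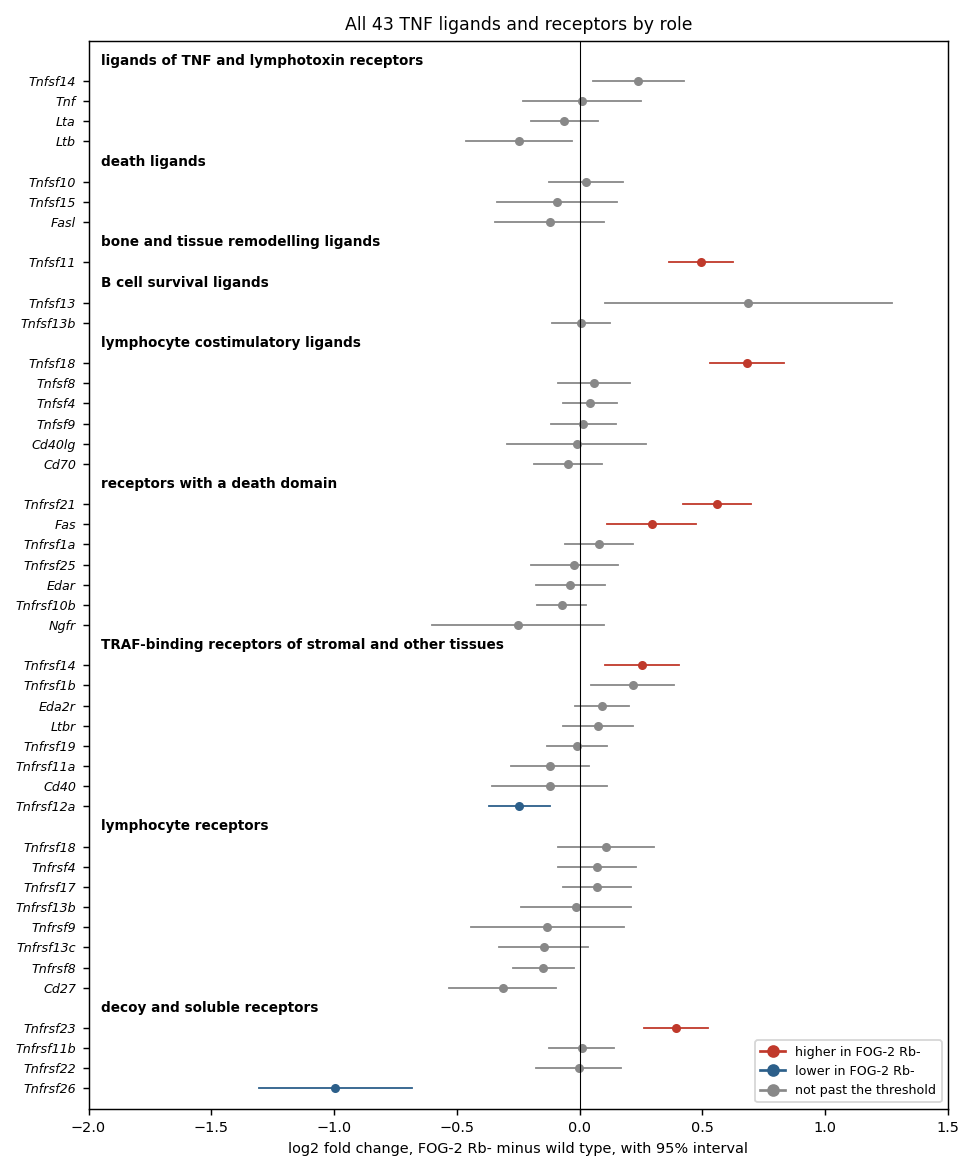
Log2 fold change, FOG-2 Rb- minus wild type, of all 43 TNF ligands and receptors, grouped by role down the page, with 95% intervals of the limma fit as lines and colour for genes past the threshold. The highest called value is that of Tnfsf18 (0.68) and the lowest that of Tnfrsf26 (-0.995); Tnfsf13 has the widest interval.

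Of 16 ligands, 2 were higher in FOG-2 Rb- cells, Tnfsf18 and Tnfsf11, and none was lower at the adjusted threshold. These are 12.5% of the ligands, where 18.03% of all rows were called. Unadjusted p was under 0.05 for 5 of the 16. Tnfsf18 encodes GITRL, a ligand that costimulates T lymphocytes through the receptor GITR (Tnfrsf18). Its log2 expression was 6.93, 7.02 and 6.96 in FOG-2 Rb- replicates 1 to 3, against 6.27, 6.39 and 6.19 in wild type replicates 1 to 3. Each FOG-2 Rb- array lay above each wild type array, and the gene was 1.61-fold higher (log2 fold change 0.68, SE 0.06, limma adjusted p = 0.000591). Tnfrsf18 measured 6.03, 5.83 and 6.10 in FOG-2 Rb- cells, against 5.78, 5.96 and 5.90 in wild type cells. The genotypes overlapped there (log2 fold change 0.11, 95% interval -0.09 to 0.30).

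Tnfsf11 encodes RANKL, the ligand that drives osteoclast formation through RANK (Tnfrsf11a) and is captured by the soluble decoy osteoprotegerin (Tnfrsf11b). It measured 5.55, 5.69 and 5.68 in FOG-2 Rb- cells, against 5.14, 5.17 and 5.12 in wild type cells. No arrays overlapped, and Tnfsf11 was 1.41-fold higher (log2 fold change 0.49, SE 0.05, limma adjusted p = 0.00133). The receptor gene Tnfrsf11a had 6.90, 6.80 and 6.71 in FOG-2 Rb- cells, against 6.87, 6.90 and 7.01 in wild type cells, with a 95% interval of the log2 fold change from -0.28 to 0.04. The decoy gene Tnfrsf11b had 8.28, 8.27 and 8.21 in FOG-2 Rb- cells, against 8.18, 8.23 and 8.33 in wild type cells, with an interval from -0.12 to 0.14. Of these 3 genes of the RANKL system, then, the ligand was past the threshold and the receptor and decoy were not.

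The largest ligand difference that did not pass was that of Tnfsf13, which encodes APRIL, a survival factor for plasma cells. Tnfsf13 measured 5.16, 5.15 and 5.49 in FOG-2 Rb- cells, against 4.35, 4.22 and 5.17 in wild type cells. Wild type replicate 3 stood apart from the other wild type arrays and within the FOG-2 Rb- values, giving this gene the widest wild type range of all 43 (0.95). With all arrays the log2 fold change was 0.69 (SE 0.25, limma adjusted p = 0.11); without wild type replicate 3 it was 0.98 (adjusted p = 0.00578). In the RefSeq gene table Tnfsf13 lies beside Tnfsf12, with the gene Tnfsfm13 spanning both, and the sources used here do not say how the probes separate these neighbours.

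The ligands of the TNF and lymphotoxin receptors did not pass. Ltb, a subunit of membrane lymphotoxin, measured 4.96, 4.98 and 5.10 in FOG-2 Rb- cells, against 5.45, 5.13 and 5.19 in wild type cells. The arrays did not overlap, but the log2 fold change of -0.25 had a limma adjusted p of 0.121. Tnf and Lta, its neighbours on chromosome 17, had log2 fold changes of 0.01 and -0.06, and their arrays overlapped. The value for Tnf was -0.01 with FOG-2 Rb- replicate 1 left out, and -0.06 and -0.03 with wild type replicate 2 and 3 left out. Tnfsf14, which encodes LIGHT, a ligand of HVEM and of the lymphotoxin beta receptor, measured 4.63, 4.82 and 4.68 in FOG-2 Rb- cells, against 4.38, 4.43 and 4.60 in wild type cells. Its log2 fold change of 0.24 had a limma adjusted p of 0.0826, and 0.0466 without wild type replicate 3.

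The death ligands gave no call. Fasl, the ligand of Fas, measured 3.82, 3.74 and 4.10 in FOG-2 Rb- cells, against 3.97, 4.03 and 4.03 in wild type cells (95% interval of the log2 fold change -0.34 to 0.10). Tnfsf10, which encodes TRAIL, measured 3.90, 3.73 and 3.82 in FOG-2 Rb- cells, against 3.84, 3.72 and 3.82 in wild type cells (interval -0.12 to 0.18). Tnfsf15, which encodes TL1A, measured 4.81, 5.18 and 5.13 in FOG-2 Rb- cells, against 5.22, 5.10 and 5.08 in wild type cells (interval -0.34 to 0.15). The genotypes overlapped for all 3. The remaining ligands, the B cell survival factor gene Tnfsf13b and the costimulatory genes Tnfsf4, Tnfsf8, Tnfsf9, Cd40lg and Cd70, had log2 fold changes between -0.05 and 0.06, and their arrays overlapped.

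Receptors gave 4 higher and 2 lower genes of 27, 22.2% called where 18.03% of all rows were. Counts of the receptor groups below stand against that same share of all rows. Among the 7 receptors with a death domain, Tnfrsf21 and Fas were higher and none was lower. Tnfrsf21 encodes death receptor 6 (DR6), known from neurons and T lymphocytes. It measured 7.45, 7.53 and 7.36 in FOG-2 Rb- cells, against 6.90, 6.91 and 6.85 in wild type cells. The lowest FOG-2 Rb- array was above the highest wild type array, and Tnfrsf21 was 1.47-fold higher (log2 fold change 0.56, SE 0.06, limma adjusted p = 0.00101).

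Fas, the receptor of Fas ligand and the best known trigger of apoptosis by a death receptor, measured 9.85, 9.70 and 9.80 in FOG-2 Rb- cells, against 9.35, 9.60 and 9.52 in wild type cells. No arrays overlapped, and Fas was 1.23-fold higher (log2 fold change 0.29, SE 0.08, limma adjusted p = 0.041). With 1 array left out the log2 fold change of Fas ran from 0.22 to 0.35 and the call held only without wild type replicate 2; the adjusted p was 0.08 and 0.0837 with wild type replicate 1 or 3 left out, and 0.124, 0.0593 and 0.117 with FOG-2 Rb- replicate 1, 2 or 3 left out. Tnfrsf10b, the mouse TRAIL death receptor, measured 10.66, 10.66 and 10.64 in FOG-2 Rb- cells, against 10.72, 10.71 and 10.74 in wild type cells. These arrays did not overlap, but the log2 fold change was -0.07 (limma adjusted p = 0.309, and 0.027 by the authors' deposited p-values after adjustment). Tnfrsf1a, the main TNF receptor of most tissues, had a log2 fold change of 0.08 (95% interval -0.06 to 0.22). The neurotrophin receptor gene Ngfr (-0.25, interval -0.60 to 0.10), the ectodysplasin receptor gene Edar (-0.04) and the TL1A receptor gene Tnfrsf25 (-0.02) had overlapping arrays.

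**Figure D2:**
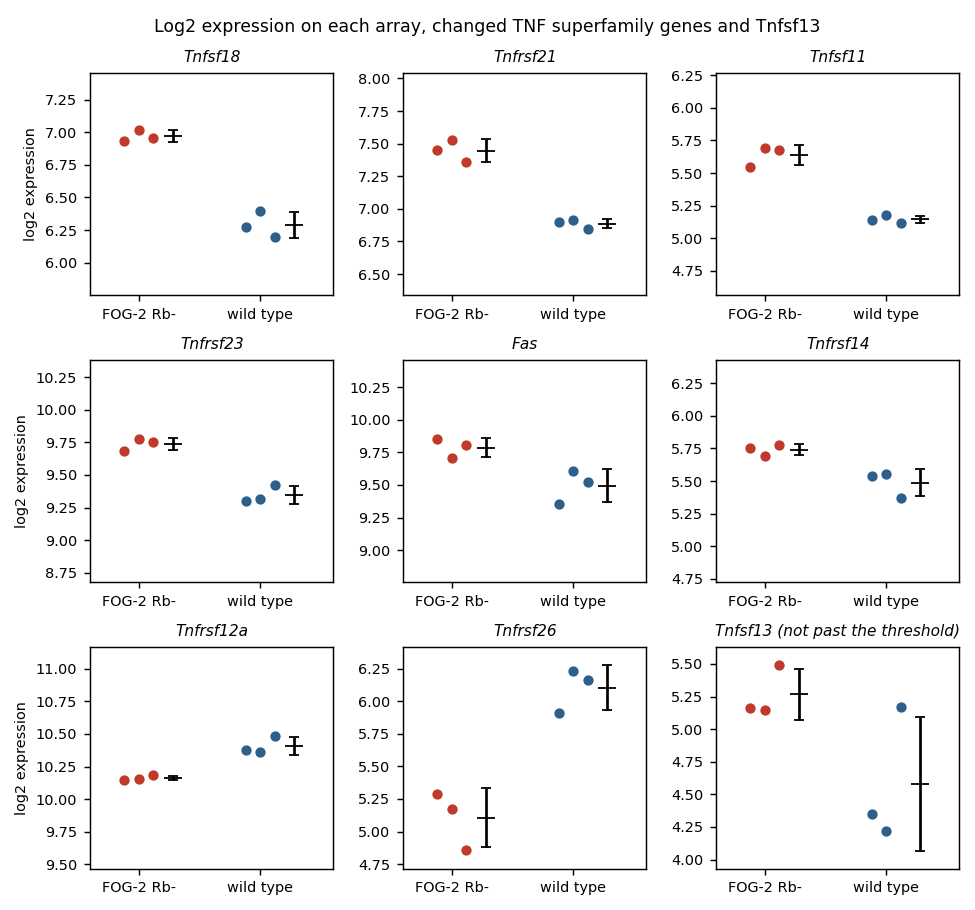
Log2 expression on each array (points) of the 8 changed TNF superfamily genes and of Tnfsf13, with FOG-2 Rb- left and wild type right of each panel and the mean ± SD of 3 arrays beside the points. Every panel spans the same range of log2 units. The genotypes are separate for the 8 changed genes, and for Tnfsf13 wild type replicate 3 lies at 5.17, among the FOG-2 Rb- arrays.

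Of the 8 TRAF-binding receptors of stromal and other tissues, Tnfrsf14 was higher and Tnfrsf12a lower. Tnfrsf14 encodes HVEM, which binds LIGHT and the inhibitory lymphocyte receptor BTLA. It measured 5.75, 5.70 and 5.78 in FOG-2 Rb- cells, against 5.54, 5.56 and 5.37 in wild type cells, 1.19-fold higher (log2 fold change 0.25, SE 0.06, limma adjusted p = 0.0356). The arrays did not overlap, but the call of Tnfrsf14 was lost without any 1 of the 6 arrays: its adjusted p was 0.0561, 0.0547 and 0.0667 without wild type replicates 1, 2 and 3 and 0.102, 0.0691 and 0.113 without FOG-2 Rb- replicates 1, 2 and 3. Tnfrsf12a encodes Fn14, the receptor of TWEAK, which growth factors induce in fibroblasts. It measured 10.15, 10.16 and 10.18 in FOG-2 Rb- cells, against 10.38, 10.36 and 10.49 in wild type cells, 1.18-fold lower (log2 fold change -0.24, SE 0.05, limma adjusted p = 0.0186). Its arrays did not overlap either, and its call was lost without FOG-2 Rb- replicate 1 (adjusted p = 0.0646), 2 (0.064) or 3 (0.056).

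In the same group, Tnfrsf1b, the second TNF receptor, had a log2 fold change of 0.22 with arrays that did not overlap (limma adjusted p = 0.0855). It passed without wild type replicate 3 (0.0422), with the trended and robust prior (0.0294) and without dim rows (0.0354). Eda2r, a receptor of an ectodysplasin isoform, also had arrays that did not overlap, at a log2 fold change of 0.09 (adjusted p = 0.253). For Ltbr (0.08), Tnfrsf19 (-0.01), Tnfrsf11a (-0.12) and the CD40 ligand receptor gene Cd40 (-0.12) the genotypes overlapped. None of the 8 lymphocyte receptors passed; unadjusted p was under 0.05 for 2 of them, Cd27 and Tnfrsf8, whose arrays did not overlap and were lower in FOG-2 Rb- cells. Cd27, the receptor of CD70, came nearest, with a log2 fold change of -0.31 (limma adjusted p = 0.0597). It passed without wild type replicate 3 (0.0105), with a trended and robust variance prior (0.037) and with arrays centred on their medians (0.0344). Tnfrsf13c, the BAFF receptor of B lymphocytes, measured 6.58, 6.50 and 6.65 in FOG-2 Rb- cells, against 6.87, 6.66 and 6.65 in wild type cells. FOG-2 Rb- replicate 3 lay among the wild type values, and the log2 fold change was -0.15 (adjusted p = 0.263). The other 5 lymphocyte receptors besides Cd27, Tnfrsf8 and Tnfrsf13c had log2 fold changes between -0.13 and 0.11 and overlapping arrays.

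The decoy and soluble receptors held the lowest value of the family. Tnfrsf26, Tnfrsf22 and Tnfrsf23 are paralogous mouse genes that follow each other on chromosome 7 with no other protein-coding gene between them in the RefSeq gene table. Tnfrsf22 and Tnfrsf23 encode decoy receptors that bind TRAIL; Tnfrsf26 encodes a related receptor. Tnfrsf26 measured 5.29, 5.17 and 4.86 in FOG-2 Rb- cells, against 5.91, 6.23 and 6.16 in wild type cells. All FOG-2 Rb- arrays lay below all wild type arrays, and Tnfrsf26 was 1.99-fold lower (log2 fold change -0.995, SE 0.13, limma adjusted p = 0.00276).

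Its neighbour Tnfrsf23 went the other way. Tnfrsf23 measured 9.69, 9.77 and 9.76 in FOG-2 Rb- cells, against 9.30, 9.31 and 9.43 in wild type cells, 1.31-fold higher with no overlap (log2 fold change 0.39, SE 0.06, limma adjusted p = 0.00367). Tnfrsf22, which lies between them, measured 7.68, 7.80 and 7.71 in FOG-2 Rb- cells, against 7.61, 7.75 and 7.85 in wild type cells. These overlapped, and the log2 fold change of -0.00 had a 95% interval from -0.18 to 0.17; its sign turned when wild type replicate 2 or 3 or when FOG-2 Rb- replicate 1 or 3 was left out. The sources used here do not give the probe definition, so signal shared between these paralogues cannot be told apart.

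Values were also read along other runs of family members on a chromosome. Tnfsf18 lies between Tnfsf4 and Fasl on chromosome 1, whose log2 fold changes were 0.04 and -0.12, against 0.68 for Tnfsf18 itself. On chromosome 4, Tnfrsf1b (0.22) lies next to Tnfrsf8 (-0.15), Tnfrsf4 (0.07) next to Tnfrsf18 (0.11), and Tnfsf15 (-0.09) next to Tnfsf8 (0.06). On chromosome 17, Tnfsf9 (0.02) and Cd70 (-0.05) lie next to Tnfsf14 (0.24). Differences between neighbours were not tested.

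Known ligand and receptor pairs were then read side by side. Of 27 pairs, 26 had a row for each side. In 6 of these pairs 1 side passed the threshold, in 20 neither did, and in 0 did both. With 18.03% of all rows called, pairs with both sides called would be rare even without a link between the sides. The counts therefore say nothing on such a link. Some genes stand in more than 1 pair, among them Tnfsf11. The ligand was the changed side for Tnfsf18 with Tnfrsf18 and for Tnfsf11 with Tnfrsf11a and Tnfrsf11b. The receptor was the changed side for Fas with Fasl, for Tnfrsf23 with Tnfsf10 and for Tnfrsf14 with Tnfsf14. Tnfsf14 and Tnfrsf14 had like values, 0.24 and 0.25, of which only the second passed. A miss of the threshold does not show that the other side was equal between the genotypes.

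**Figure D3:**
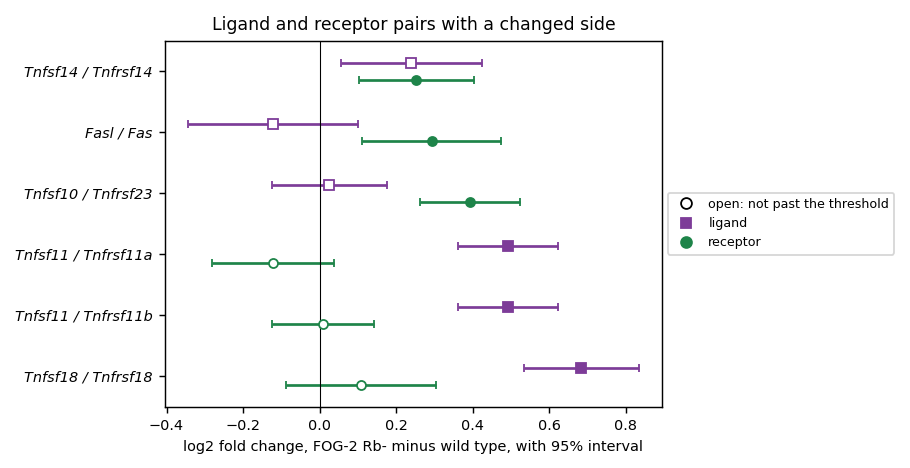
Log2 fold change, FOG-2 Rb- minus wild type, with 95% limma intervals, of the ligand (squares) and the receptor (circles) in the 6 pairs with a changed side; filled symbols are past the threshold. The ligand is the filled symbol in the pairs of Tnfsf18 (0.68) and Tnfsf11 (0.49), the receptor in those of Fas (0.29), Tnfrsf23 (0.39) and Tnfrsf14 (0.25).

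The 8 calls differed in how they held when arrays were left out. Tnfsf18, Tnfrsf21, Tnfsf11, Tnfrsf23 and Tnfrsf26 passed in each of the 6 fits without 1 array. Their log2 fold changes then ran from 0.64 to 0.74, 0.52 to 0.60, 0.47 to 0.54, 0.37 to 0.43 and -1.09 to -0.87 in that order. Fas, Tnfrsf14 and Tnfrsf12a kept their direction in those fits and lost their calls as given above. The count of changed members fell to 5, with 4 higher and 1 lower, without any 1 FOG-2 Rb- array, where 12.57%, 12.44% and 11.81% of all rows passed for replicates 1, 2 and 3. It was 10, with 7 higher and 3 lower, without wild type replicate 3, where 14.48% of all rows passed. It was 6 and 7 without wild type replicates 1 and 2, where 14.51% and 12.44% passed. The 4 genes that passed without wild type replicate 3 and not with all arrays were Tnfsf13, Tnfsf14, Tnfrsf1b and Cd27. Under other settings with all 6 arrays the count stood beside a background that moved too: 9 with a trended and robust variance prior (23.15% of all rows), 8 with arrays centred on their medians (15.51%), 8 with quantile normalization anew (18.48%), 6 of 17 without dim rows (43.48%) and 7 by the authors' deposited p-values after adjustment (14.96%).

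**Figure D4:**
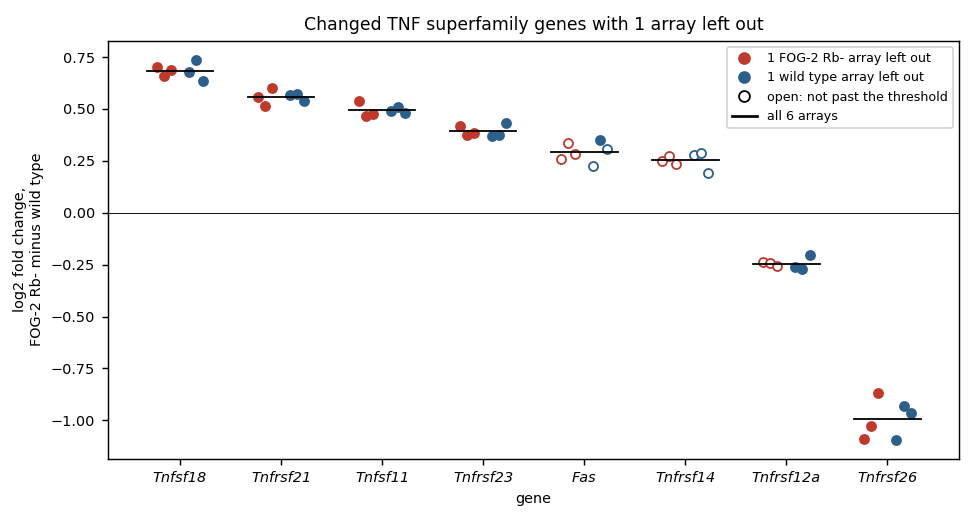
Log2 fold change, FOG-2 Rb- minus wild type, of the 8 changed genes with 1 array left out in turn (red, 1 of the FOG-2 Rb- arrays; blue, 1 of the wild type arrays) and with all 6 arrays (black line); open points are past no threshold. Points of Tnfsf18, Tnfrsf21, Tnfsf11, Tnfrsf23 and Tnfrsf26 are all filled, and those of Tnfrsf14 are all open.

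Promoters are shown for the 4 genes with the largest rises among those past the threshold, to set the sequence before the start of each beside its value. They are from RefSeq on GRCm38.p6, 250 bases before to 50 after the gene's start, 5′ to 3′ on the gene's strand; the promoter table matched 34 of the 43 members. Capitals mark a loose form of the NF-kB site, 3 G bases, any 5 bases and 2 C bases, on either strand. The windows are chr1:161494407-161494706 on the plus strand for Tnfsf18 (log2 fold change 0.68), chr17:43016305-43016604 on the plus strand for Tnfrsf21 (0.56), chr14:78307994-78308293 on the minus strand for Tnfsf11 (0.49) and chr7:143685826-143686125 on the minus strand for Tnfrsf23 (0.39).
Tnfsf18: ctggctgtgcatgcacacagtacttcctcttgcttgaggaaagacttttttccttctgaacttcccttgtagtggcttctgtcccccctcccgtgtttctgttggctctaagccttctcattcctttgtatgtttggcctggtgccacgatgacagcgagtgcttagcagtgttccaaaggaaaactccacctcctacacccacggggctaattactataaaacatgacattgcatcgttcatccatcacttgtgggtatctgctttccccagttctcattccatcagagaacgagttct
Tnfrsf21: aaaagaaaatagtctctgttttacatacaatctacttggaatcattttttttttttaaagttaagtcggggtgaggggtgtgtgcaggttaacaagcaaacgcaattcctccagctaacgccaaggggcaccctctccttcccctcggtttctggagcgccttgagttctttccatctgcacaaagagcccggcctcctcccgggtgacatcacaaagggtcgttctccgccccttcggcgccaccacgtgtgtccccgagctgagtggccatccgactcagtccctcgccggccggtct
Tnfsf11: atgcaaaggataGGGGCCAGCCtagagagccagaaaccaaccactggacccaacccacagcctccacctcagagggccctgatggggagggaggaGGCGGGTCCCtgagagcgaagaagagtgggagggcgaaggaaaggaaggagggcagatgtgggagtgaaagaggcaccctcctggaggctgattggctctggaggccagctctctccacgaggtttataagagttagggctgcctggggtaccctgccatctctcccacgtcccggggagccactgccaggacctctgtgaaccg
Tnfrsf23: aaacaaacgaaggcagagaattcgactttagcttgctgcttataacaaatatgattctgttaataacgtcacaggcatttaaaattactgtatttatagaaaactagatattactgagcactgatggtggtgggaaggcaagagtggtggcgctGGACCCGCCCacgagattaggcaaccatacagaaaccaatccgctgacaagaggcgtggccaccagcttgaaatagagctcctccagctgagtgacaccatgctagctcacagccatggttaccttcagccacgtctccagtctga
Tnfsf11 held 2 matches, Tnfrsf23 held 1, and Tnfsf18 and Tnfrsf21 held 0. The pattern, searched on both strands, occurred in 4 of the 6 promoters of higher members, in 25 of 38 promoters of all members (65.8%) and in 50.8% of the 32851 promoters in the table. The GATA patterns AGATAA and TGATAA, searched on both strands, occurred in 0 of the 6, in 3 of the 38 (7.89%) and in 18.6% of all promoters. A match or its absence in these windows says nothing on whether a factor binds.

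Genes that act below the receptors were read from 8 lists with 123 genes, of which 111 were matched to a row. Of 24 adaptors and ubiquitin regulators, 7 were higher, 2 lower and 15 did not pass. The 9 called are 37.5%, against 18.03% of all rows, and the median log2 fold change was 0.07. Most of these genes lay above the median level, where 31.42% of rows passed, so the share was nearer to that background. Mlkl, which encodes the pore-forming effector of necroptosis, measured 8.22, 8.07 and 8.12 in FOG-2 Rb- cells, against 6.58, 6.54 and 6.21 in wild type cells. It was 3.23-fold higher (log2 fold change 1.69, SE 0.10, limma adjusted p = 0.000104), with no overlap. Ripk3, the kinase that phosphorylates MLKL, measured 7.19, 7.34 and 7.19 in FOG-2 Rb- cells, against 7.79, 7.89 and 7.75 in wild type cells, and was 1.48-fold lower. These genes of 1 pathway thus differed in opposite directions.

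Tnfaip3, which encodes A20, a ubiquitin editing inhibitor of NF-kB signalling, measured 7.63, 7.69 and 7.41 in FOG-2 Rb- cells, against 6.87, 6.74 and 6.80 in wild type cells, and was 1.71-fold higher. Its binding partner gene Tnip1 was 1.29-fold higher, the deubiquitinase gene Cyld 1.37-fold lower and the deubiquitinase gene Otulin 1.32-fold higher. Otulin no longer passed with wild type replicate 1 or 2 left out (adjusted p = 0.077 and 0.0874) and with FOG-2 Rb- replicate 1 or 3 left out (0.07 and 0.0617). Of 16 NF-kB factors, inhibitors and kinases, 2 were higher, 3 lower and 11 did not pass (median log2 fold change -0.06). The share called was 31.25%, against 18.03% of all rows. All 16 lay above the median level, where 31.42% of rows passed, so the share was near that background. Nfkbiz, an atypical nuclear IkB protein gene, was 1.45-fold higher and Ikbkg, the regulatory subunit of the IkB kinase, 1.27-fold higher. Nfkb2, the precursor of p52, was 1.28-fold lower, the inhibitor gene Nfkbie 1.25-fold lower and the kinase gene Map3k7 1.20-fold lower. Map3k7 no longer passed with wild type replicate 1 or 3 left out (adjusted p = 0.0879 and 0.0894) and with FOG-2 Rb- replicate 1, 2 or 3 left out (0.0986, 0.0794 and 0.0884).

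Of 29 TNF-inducible and NF-kB target genes, 5 were higher, 11 lower and 13 did not pass. The 16 called are 55.2% of the list, against 18.03% of all rows, with a median log2 fold change of -0.08. Genes of this list lay on both sides of the median level, where 31.42% of rows above and 4.63% of rows below passed. Ccl5, a chemokine gene, measured 6.50, 6.57 and 6.19 in FOG-2 Rb- cells, against 7.83, 7.80 and 7.88 in wild type cells, and was 2.67-fold lower (log2 fold change -1.42, SE 0.10, limma adjusted p = 0.00019). Ccl7, another chemokine gene, measured 10.81, 10.82 and 10.84 in FOG-2 Rb- cells, against 9.82, 9.67 and 9.69 in wild type cells, and was 2.13-fold higher (log2 fold change 1.09, SE 0.06, limma adjusted p = 4.47e-05). Neither gene's arrays overlapped. Both were named for their large changes among the genes of this list, so their opposite directions do not describe the list. Activity of the pathway was not measured. The interferon-inducible chemokine gene Cxcl10 was 1.71-fold lower and the early response gene Ier3 1.53-fold lower. Vcam1, an adhesion molecule gene, was 1.69-fold higher and the acute phase gene Saa3 1.47-fold higher.

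In the remaining lists, 2 of 13 apoptosis genes were higher and 4 lower, 46.2% called against 18.03% of all rows (median log2 fold change -0.01). All 13 lay above the median level, where 31.42% of rows passed. The anti-apoptotic gene Bcl2 was 1.43-fold higher and the caspase gene Casp6 1.29-fold higher. Of genes of the BCL2 family, Bcl2l11 was 1.28-fold lower, Bid, which links death receptors to mitochondria, 1.27-fold, Pmaip1 1.19-fold and Mcl1 1.12-fold lower. The call of Mcl1 was lost without any 1 array (adjusted p = 0.0925 to 0.132), and that of Bcl2l11 without any array except wild type replicate 2 (0.0657 to 0.119). Of 10 JNK and p38 kinase genes, Map3k5, the kinase ASK1, was 1.30-fold lower and 9 did not pass. The share called was 10%, against 18.03% of all rows. Most of these genes lay above the median level, where 31.42% of rows passed. Without wild type replicate 1, 3 were lower.

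Of 5 shedding genes, 3 were higher, 60% called against 18.03% of all rows. All 5 lay above the median level, where 31.42% of rows passed. The protease gene Adam10 was higher by 1.34-fold, Rhbdf1, a regulator of the TNF protease ADAM17, by 1.21-fold and the inhibitor gene Timp3 by 1.13-fold. The call of Timp3 was lost without any 1 array (adjusted p = 0.0536 to 0.0951) and that of Rhbdf1 without FOG-2 Rb- replicate 3 (0.0511), which left 1 called gene. Of 8 neurotrophins and co-receptors, the neurotrophin receptor gene Ntrk3 was 1.26-fold and the sortilin gene Sort1 1.37-fold higher, 25% called against 18.03% of all rows; the call of Ntrk3 was lost with FOG-2 Rb- replicate 1 or any wild type array left out (adjusted p = 0.0621 to 0.0794), which left 1 gene. Of 6 other family genes and HVEM partners, Rell1, a homologue of the receptor RELT, was 1.21-fold lower and 5 did not pass, 16.7% called against 18.03% of all rows.

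**Figure D5:**
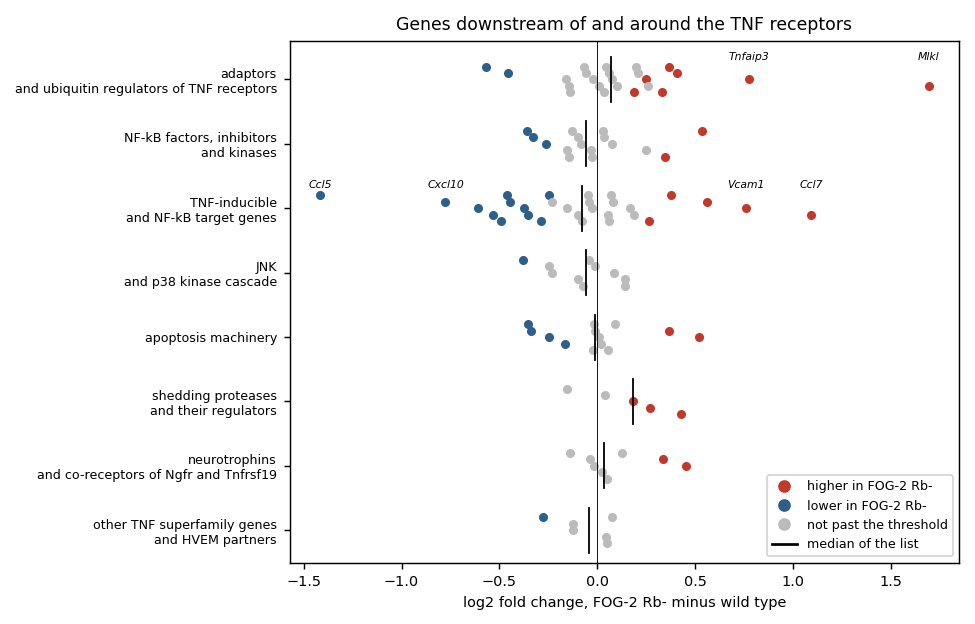
Log2 fold change, FOG-2 Rb- minus wild type, of the 111 matched genes in 8 lists around the TNF receptors; each point is a gene, colour marks genes past the threshold, black bars are list medians, and called genes beyond 0.7 are named. Medians lie between -0.08 and 0.18, while Mlkl reaches 1.69 and Ccl5 lies at -1.42.

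Markers of cell types that could carry these genes were read on the same arrays. The fibroblast marker Col1a1 was between 12.78 and 12.81 in FOG-2 Rb- cells, against 12.39 to 12.44 in wild type cells, and Pdgfra between 10.24 and 10.27 in FOG-2 Rb- cells, against 11.12 to 11.18 in wild type cells. Of 10 fibroblast markers 2 were higher and 4 lower, with a summed linear level of 36831 to 37217 in FOG-2 Rb- arrays, against 36786 to 37619 in wild type arrays. Such a sum mostly weighs the brightest rows, here Vim and Fn1 among others, so it does not show that the markers were alike. Col1a1 and Col3a1 were higher (1.30-fold and 1.29-fold). Dcn was 3.41-fold lower, Lum 2.93-fold, Pdgfra 1.87-fold and Thy1 1.71-fold lower. None of 8 T lymphocyte, 4 B lymphocyte and 3 natural killer cell markers passed (unadjusted p was under 0.05 for 0, 1 and 0). The summed level of the T lymphocyte markers was 166 to 169 in FOG-2 Rb- arrays, against 166 to 181 in wild type arrays, that of the B lymphocyte markers 78.2 to 80.9 against 77.0 to 87.0, and that of the natural killer markers 58.0 to 80.1 against 61.8 to 72.6. The leukocyte marker Ptprc lay at 3.59 to 3.67 in FOG-2 Rb- cells, against 3.57 to 3.71 in wild type cells, and Cd3e, Ncr1 and Adgre1 did not pass (log2 fold changes -0.13, -0.13 and -0.06). A log2 scale holds no 0, so absence cannot be read from these values.

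Markers of other cell types held some calls. Of 8 mesothelium markers, 6 were higher and 1 lower, with a summed level of 1473 to 1564 in FOG-2 Rb- arrays, against 610 to 660 in wild type arrays. The largest rise was that of Upk1b, 9.68-fold (mean 9.30 in FOG-2 Rb- cells, against 6.02 in wild type cells), which weighs heavily in this sum. The 1 lower was Msln, by 2.35-fold. Both are named after their values were seen. Of 8 macrophage markers, Csf1r and Cd68, named like Kdr after their values were seen, were higher (1.26-fold and 1.62-fold) and 0 lower. The other 6 did not pass, and some of them had negative log2 fold changes, such as Mrc1 (-0.22). The summed level was 547 to 561 in FOG-2 Rb- arrays, against 441 to 463 in wild type arrays. Cd68 (mean 7.97 in FOG-2 Rb- cells, against 7.28 in wild type cells) weighs heavily in this sum. Kdr was the 1 higher of 8 endothelial markers, by 5.18-fold (mean 7.63 in FOG-2 Rb- cells, against 5.26 in wild type cells). The other 7 did not pass, among them Pecam1 (log2 fold change 0.09) and Tek (-0.21). The summed level of this list was 416 to 437 in FOG-2 Rb- arrays, against 264 to 281 in wild type arrays. Kdr weighs heavily in that sum, so it does not show a rise of the list as a whole. None of 4 osteoblast, 4 Schwann cell and 4 epithelial markers passed (unadjusted p was under 0.05 for 0, 0 and 2), with Sp7, Sox10 and Epcam at log2 fold changes of -0.01, -0.11 and 0.02. Their summed levels were 108 to 130, 134 to 146 and 116 to 122 in FOG-2 Rb- arrays, against 114 to 122, 141 to 151 and 111 to 120 in wild type arrays. The median log2 fold change was 0.91 for the mesothelium list, -0.02 for the macrophage list and 0.00 for the endothelial list. The part of the called markers in the TNF results was not tested. In such cultures a change in the number of cells of a type and a change in RNA per cell, up or down, cannot be told apart.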

How the data were processed

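The authors deposited log2 expression values, 1 row per Entrez gene, for 6 arrays; RMA and Partek are named without versions in the submitters' processing notes, while genome build and probe definition are not given there. RMA is a method of background correction, quantile normalization and probe summary, and it compresses changes of dim genes. The authors also deposited a table with a p-value and a ratio, mutant over wild type, per gene. On the log2 scale the ratio and the difference computed here lay within 7.18e-06 of each other in every row, which fixes scale and direction. Scanner files were not used here.

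The platform annotation gave 1 symbol for 23111 rows and none for 637, which were tested but stay unnamed. Members were matched by symbol. Of 67 marker genes in 10 lists, 61 were matched. Tests across all rows used lmFit and eBayes of limma 3.58.1 under R 4.3.3 (genotype as the only term, both sides, FOG-2 Rb- minus wild type), adjusted after Benjamini-Hochberg over 23748 rows, threshold 0.05; every adjusted p is from this fit unless another setting is named. No filter on low values was used, and the number of arrays limits the precision. Summed levels add 2 to the power of each log2 value. The fit was tested on simulated data.

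Members, lists and alternatives were chosen with earlier results of these data known. Values by array are given for each changed member, for its known ligand or receptor and for the brightest row of each role, a choice that ranks no gene against another; from each list up to 6 called genes with the largest change are named. The alternatives left out each array, added the replicate block, changed the variance prior and normalization, left out dim rows and took the authors' deposited p-values.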

Additional observations from a re-analysis of the deposited data

How the results depend on the processing

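Of the 8 changed members, Tnfsf18, Tnfrsf21, Tnfsf11, Tnfrsf23 and Tnfrsf26 passed in each alternative that held their row; rows of Tnfsf11, Tnfrsf26 and Tnfrsf14 are among the dim rows left out. No changed member turned direction. Of the 12 alternatives Fas passed in 4 and Tnfrsf12a in 9, and Tnfrsf14 in 2 of 11. The number of changed members was 5 to 10 with 1 array left out and 6 to 9 under the other settings: 7 with the replicate block, where 13.39% of all rows passed, 9 with a trended and robust prior, 8 with centred arrays, 8 with quantile normalization anew, 6 of 17 without dim rows and 7 by the authors' deposited p-values after adjustment. The replicate numbers were not taken as pairs, since the labels do not say that a number marks anything shared. Deviations of samples that share a number correlated at 0.0314, 0.0176 and 0.00208, against -0.034 to 0.0205 for samples that do not. With 3 arrays per genotype such correlations cannot exclude pairing. Under the replicate block Tnfsf13 passed (adjusted p = 0.031), Fas (0.1) and Tnfrsf14 (0.0855) did not, and Map3k7, Bcl2l11, Mcl1, Timp3 and Ntrk3 lost their calls. The block moved the number of changed neurotrophin and co-receptor genes to 1 and moved no other list count by over 1.5 times. That number was 1 also without dim rows and by the authors' deposited p-values, and 1 to 2 with 1 array left out. The number of changed NF-kB factors, inhibitors and kinases was 9 without dim rows, where 43.48% of rows passed, and that of JNK and p38 genes was 3 there and with the trended prior, and 1 to 3 with 1 array left out. Changed shedding genes numbered 1 to 2 with 1 array left out. The cause was not tested.

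Signs that turned were all of members not past the threshold. With quantile normalization anew the log2 fold changes were 0.0051 for Cd40lg, -0.0031 for Tnfsf9, 0.0016 for Edar, 0.0041 for Tnfrsf25, 0.027 for Tnfrsf19 and 0.0044 for Tnfrsf13b. With 1 array left out they ran from -0.0645 to 0.13 for Tnf, -0.16 to 0.0237 for Tnfsf15, -0.0171 to 0.0686 for Tnfsf10, -0.0275 to 0.0338 for Tnfsf13b, -0.11 to 0.0728 for Cd40lg, -0.0291 to 0.0463 for Tnfsf9. In the same fits they ran from -0.0692 to 0.00954 for Edar, -0.10 to 0.0213 for Tnfrsf25, -0.0371 to 0.0191 for Tnfrsf19, -0.0937 to 0.0867 for Tnfrsf13b, -0.0673 to 0.0532 for Tnfrsf22, -0.0255 to 0.0497 for Tnfrsf11b.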
